A study of Mus musculus with 6 samples.

Results

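Pre-mRNA splicing genes were examined in hematopoietic stem cells of wild-type (WT) and Mcph1-/- mice. The genes were those whose symbols belong to 5 families of the splicing machinery (Snrp, Sf3a and Sf3b, Srsf, Prpf followed by a digit, and Lsm), leaving out symbols that contain -ps. This rule found 56 of the 11108 listed genes, with 12 in the Snrp family, 9 in Sf3, 10 in Srsf, 13 in Prpf and 12 in Lsm. Snrpn, Srsf12 and Lsm14b also fit the rule by their symbols in the mouse gene annotation. No listed gene carries these symbols, so they are not analysed here. Each of the 3 WT and 3 Mcph1-/- libraries was prepared by Smart-seq2, which copies whole transcripts from few cells, from 200 bone marrow cells sorted as Lineage- Sca-1+ c-kit+ CD34- CD150+. The deleted gene, Mcph1, encodes microcephalin, which acts in chromosome condensation and in DNA repair signalling. The labels do not give the ages of the mice, the strain, or which part of Mcph1 was deleted. Nor do they say if each library had its own mouse, and p-values then measure only the spread between these samples, which may be technical.

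Introns are removed by the spliceosome, which assembles on each pre-mRNA from small nuclear ribonucleoproteins (snRNPs), each built on 1 small nuclear RNA. Sm proteins form a ring around the U1, U2, U4 and U5 RNAs, and LSm proteins form the matching ring on U6 RNA. SF3a and SF3b belong to the U2 snRNP and hold the branch point region, Prpf proteins build and activate the U4/U6.U5 particle, and SR proteins bind exons and recruit the other parts. In blood-forming cells, splicing factor genes such as SF3B1 and SRSF2 are known as recurrent sites of mutation in human myeloid disease.

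Values are normalised read counts, the reads of a gene divided by 1 size factor per library, and are given in the order of replicates 1 to 3. A fold change is the difference between the genotypes in mean log2(value + 1), tested with limma-trend over the 10846 genes whose mean value reached 10, and a gene was called when its Benjamini-Hochberg adjusted p was under 0.05. The libraries held 8102605 to 8655123 reads over the listed genes in WT and 9464810 to 10455908 in Mcph1-/-, with reads for 10209 to 10335 listed genes in WT and 10516 to 10777 in Mcph1-/-. The deleted gene was read in every library, at 160.5, 341 and 34.4 in WT and 428, 37.7 and 234 in Mcph1-/- (log2 fold change 0.33, SE 1.25, limma adjusted p = 0.958), and its values overlap between genotypes, so these totals cannot serve as a check of the labels. Of a list of 7 genes, 3 encode positive markers of the gate (Kit, Ly6a and Slamf1) and the others, Ptprc, Procr, Mecom and Hlf, are blood or stem cell genes outside it. All 7 were listed, with summed values of 6764 to 11413 in WT and 7948 to 8423 in Mcph1-/-. Slamf1, which encodes CD150, was uneven in both genotypes, at 0, 224 and 497 in WT and 65.7, 395 and 0.893 in Mcph1-/-. Transcripts of Cd34, whose protein the gate excludes, were read in every library, at 200.9 to 529 in WT and 208 to 569 in Mcph1-/-.

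Of the 56 splicing genes, 0 were called by limma, where 0.0369% of all tested genes were called (0.00922% higher and 0.0277% lower in Mcph1-/-). An unadjusted limma p under 0.05 was found for 9 of the 56, a larger share than the 7.71% of all tested genes. Of these 9, 8 were higher in Mcph1-/-, where 4.16% of all tested genes were, and 1 was lower, where 3.55% were. The number was 2 without Mcph1-/- replicate 2 (where 5.39% of all tested genes had such a p) and 3 without Mcph1-/- replicate 3 (4.99%). It was 7 without Mcph1-/- replicate 1 (5.48%), 10 without WT replicate 1 (7.77%), 7 without WT replicate 2 (8.01%) and 10 without WT replicate 3 (11.4%). The count of called genes was also 0 by edgeR's quasi-likelihood test, which called 0.0184% of all tested genes, and by limma-voom, which called 0.00922%. An unadjusted p under 0.05 was given to 8 of the 56 by edgeR, against 5.47% of all tested genes, and to 12 by limma-voom, against 8.58%. DESeq2 called 2 of them, Lsm2 (higher) and Srsf11 (lower), where it called 2.19% of all tested genes, 1.11% higher and 1.09% lower. It gave 13 of the 56 an unadjusted p under 0.05, against 10.9% of all tested genes. By the mean of log2 values, 40 of the 56 were higher in Mcph1-/- (71.4%) against 53.8% of all tested genes, and the median log2 fold change was 0.32 against 0.08 over all tested genes. In 11 of the 56 (19.6%) all 3 Mcph1-/- values lay above all 3 WT values, against 7.4% of all tested genes. In 3 of the 56 (5.36%) they all lay below, against 6.8%. The 56 genes differ from all tested genes in level and spread. Their median of mean values was 840.0 against 286, and their median pooled SD of log2 values within genotypes was 0.33 against 0.88. The part of level and spread in these shares was not tested, so the shares cannot be read as particular to splicing genes. The plot of log2 fold changes by family shows that the Snrp family made up 7 of the 11 genes separated upward. Without Snrpert, a pseudogene row of Snrpe described below, 10 of 55 (18.2%) separated upward and 7 higher genes had an unadjusted limma p under 0.05. Lsm11, among the 11 and the 9, is listed only because every Mcph1-/- library had reads of it. Its separated groups and its p therefore add no support.

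**Figure D1:**
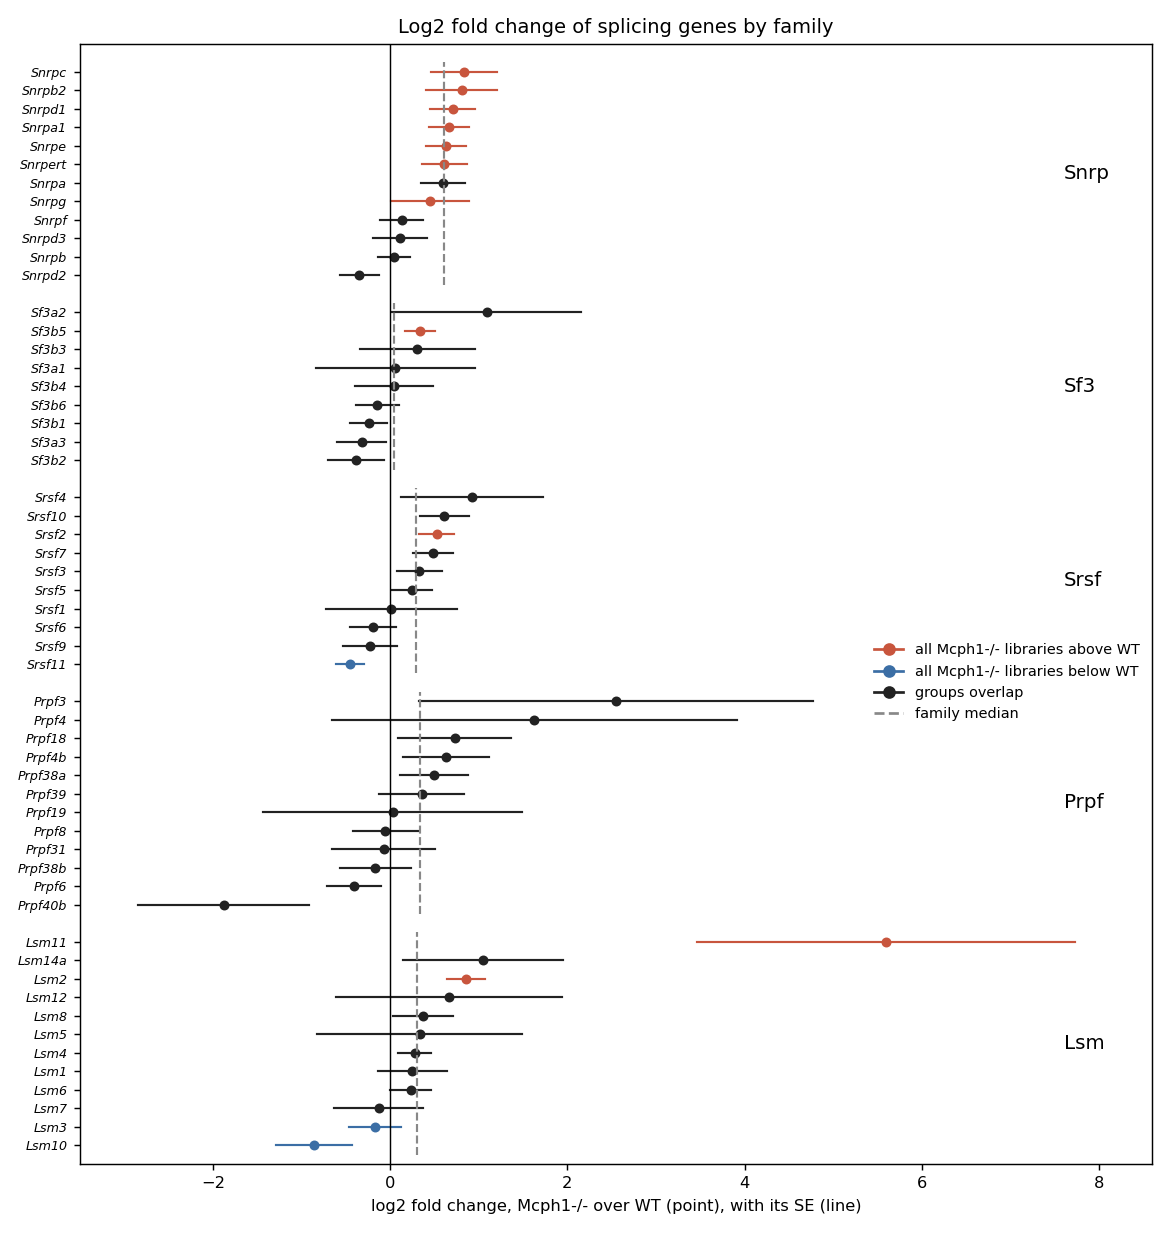
Log2 fold change (Mcph1-/- over WT, horizontal axis) of 55 of the 56 splicing genes, with its SE from limma as a line and the family median as a dashed line, grouped by family; red marks genes with all Mcph1-/- libraries above WT, blue all below and black overlap. In the Snrp family 11 of 12 points lie right of 0 and 7 have no overlap between the 3 WT and 3 Mcph1-/- libraries, while the Sf3 points lie on both sides of 0.

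Markers of dividing cells and of other lineages, and depth, differed between the libraries of the genotypes as well. All 6 markers of dividing cells (Ube2c, Ccnb2, Ccna2, Kif11, Mki67 and Top2a) had higher mean log2 values in Mcph1-/-, with summed values of 1305 to 2689 in WT and 4839 to 8085 in Mcph1-/-, and Kif11 had 0 reads in at least 1 library. Of 8 erythroid markers 5 were higher and 3 lower, with summed values of 2551 to 19445 in WT and 27764 to 35500.4 in Mcph1-/-, Gata1, Hbb-bs and Epor having 0 reads in at least 1 library. Car1 made up most of the Mcph1-/- sums. The 3 lower genes were globins, Hba-a1 (log2 fold change -3.40, SE 1.21), Hba-a2 (-3.27, SE 1.79) and Hbb-bs (-5.03, SE 2.10). Car1, Klf1, Gata1, Hbb-bt and Epor were the 5 higher ones. The 6 listed neutrophil markers of 8 summed to 52138 to 65421 in WT and 296 to 13266 in Mcph1-/-, with 5 lower and 1 higher and Elane at 0 reads in at least 1 library. Most of the upper Mcph1-/- sum was Mpo and Elane in Mcph1-/- replicate 3, and both were uneven in each genotype. Mpo, the 1 higher, stood at 5959, 1.03 and 2.02 in WT and 1.82, 53.3 and 4856 in Mcph1-/-. Elane stood at 3614, 138 and 1.01 in WT and 3.65, 0 and 8095 in Mcph1-/-. Car1 stood at 1628, 1977 and 4566 in WT and 30038, 23716 and 31845 in Mcph1-/- and S100a8 at 17462, 18646 and 30971 in WT and 191, 327 and 153 in Mcph1-/-. Monocyte and macrophage markers, 2 of 4 listed and both lower, summed to 7561 to 12364 in WT and 4399.7 to 4695 in Mcph1-/-, with Ly6c2 at 0 reads in at least 1 library. The part of these markers, and of the larger number of genes with reads in Mcph1-/- libraries, in the differences of the splicing genes was not tested. In such bulk libraries, a change in the mix of cells and a change in RNA per cell cannot be told apart.

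The Snrp family held the highest share of genes with separated groups. Of its 12 listed genes 11 were higher in Mcph1-/- (median 0.61 on the log2 scale), and 7 of 12 (58.3%) had all Mcph1-/- values above all WT values. Their summed reads made up 0.247%, 0.222% and 0.197% in WT and 0.250%, 0.276% and 0.308% in Mcph1-/- of all reads. The 3 Mcph1-/- shares lay above the 3 WT shares, although WT replicate 1 and Mcph1-/- replicate 1 were close. That separation depends on Snrpert, a pseudogene row described below. Without Snrpert the shares were 0.2363%, 0.2131% and 0.1883% in WT and 0.2355%, 0.2626% and 0.2913% in Mcph1-/-. Mcph1-/- replicate 1 then lay below WT replicate 1.

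The Sm ring is built from Snrpb, Snrpd1, Snrpd2, Snrpd3, Snrpe, Snrpf and Snrpg, with 6 of 7 genes higher in Mcph1-/- and 3 of 7 separated between genotypes. Snrpd1 (encoding SmD1) stood at 822, 1062 and 1313 in WT and 1523, 1847 and 1769 in Mcph1-/-. The groups did not overlap, and averages were 1066 ± 245 in WT and 1713 ± 169 in Mcph1-/- (SD, n = 3; log2 fold change 0.71, SE 0.26, limma adjusted p = 0.626). Snrpe (SmE) stood at 1400.0, 1097 and 1177 in WT and 1681, 1803 and 2191 in Mcph1-/-, again without overlap between the genotypes (log2 fold change 0.63, SE 0.23, limma adjusted p = 0.626, a 1.54-fold difference). Snrpg (SmG), the lowest of the ring in reads, stood at 364, 284 and 261 in WT and 454, 412 and 366 in Mcph1-/-. Its groups were separated by less than 2 normalised reads, between WT replicate 1 and Mcph1-/- replicate 3 (log2 fold change 0.45, SE 0.44, limma adjusted p = 0.782).

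The 4 other ring genes overlapped between genotypes. Snrpb, which encodes SmB and has the most reads of the family, stood at 7569, 6201 and 5321 in WT and 5657, 6714 and 7202 in Mcph1-/-, with a log2 fold change of 0.04 (SE 0.18) and a 95% interval of -0.37 to 0.46. Snrpd3, whose product pairs with SmB in the ring, stood at 574, 848 and 884 in WT and 857, 727 and 865 in Mcph1-/- (log2 fold change 0.11, SE 0.30). Snrpf, whose product sits with SmE and SmG, stood at 1875, 1363 and 1281 in WT and 1738, 1393 and 1783 in Mcph1-/- (log2 fold change 0.13, SE 0.24). Snrpd2, the partner of SmD1, was the 1 Snrp gene with a lower mean log2 value in Mcph1-/-, at 2859.7, 3040.3 and 2175 in WT and 2181, 1743 and 2411 in Mcph1-/- (log2 fold change -0.35, SE 0.22, limma adjusted p = 0.695). WT replicate 3 lay inside the range of the Mcph1-/- libraries for Snrpd2. SmD1 and SmD2 form a pair in the ring, and the 95% intervals of their genes' log2 fold changes, 0.12 to 1.29 for Snrpd1 and -0.85 to 0.16 for Snrpd2, overlapped by little. The difference between these genes was not tested.

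**Figure D2:**
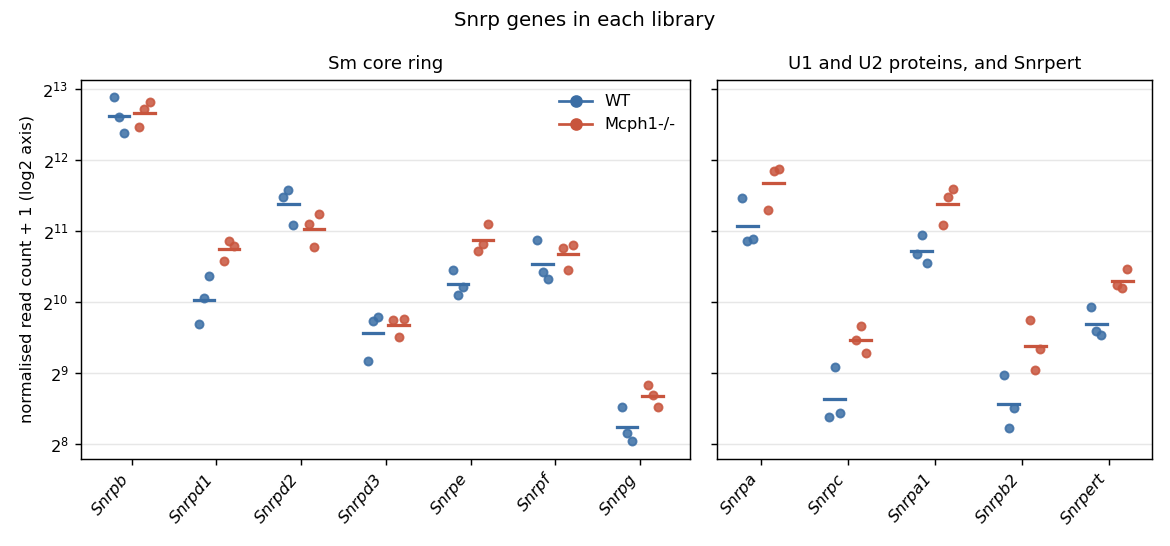
Normalised read count + 1 of each Snrp gene in each library on a log2 axis, with WT in blue and Mcph1-/- in red; points are libraries and bars the means of log2 values. Snrpd1, Snrpe, Snrpg, Snrpc, Snrpa1, Snrpb2 and Snrpert have all 3 red points above all 3 blue points, and Snrpd2 has its red mean below its blue mean.

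The 4 Snrp genes of proteins specific to the U1 or U2 particle were all higher in Mcph1-/-, with log2 fold changes of 0.60 to 0.84. This does not extend to every gene of these particles. Snrnp70, counted below among the U1, U5 and tri-snRNP partners, was near 0 at 0.06 (SE 0.46), and its genotypes overlapped. The SF3a and SF3b genes, whose products also belong to the U2 snRNP, were split, 5 higher and 4 lower. Snrpc, which encodes the C protein of U1, which helps that particle bind the 5′ splice site, lies on chromosome 17 from 27838150 to 27851968 (mm10) and stood at 331, 543 and 346 in WT and 708, 809.6 and 619 in Mcph1-/- (log2 fold change 0.84, SE 0.37, limma adjusted p = 0.655). Snrpb2, which encodes the B″ protein bound to U2 RNA, lies on chromosome 2 from 143063039 to 143072853 and stood at 501, 297 and 363 in WT and 856, 524 and 648 in Mcph1-/- (log2 fold change 0.81, SE 0.40, limma adjusted p = 0.662). For both genes the groups did not overlap, with the lowest Mcph1-/- library of Snrpb2 close to the highest WT library. Snrpa1, which encodes the A′ protein of U2, the partner of B″, lies on chromosome 7 from 66059003 to 66074587 and stood at 1641, 1959.5 and 1489 in WT and 2161, 2863 and 3080.2 in Mcph1-/-, without overlap (log2 fold change 0.66, SE 0.22, limma adjusted p = 0.626). Snrpa, which encodes the A protein of U1, stood at 2828, 1862 and 1887 in WT and 2518, 3689 and 3728 in Mcph1-/- (log2 fold change 0.60, SE 0.25, limma adjusted p = 0.642). WT replicate 1 of Snrpa lay above Mcph1-/- replicate 1, so that gene is not among the separated ones. Together these 4 genes took 0.0603%, 0.0535% and 0.0466% in WT and 0.0723%, 0.0919% and 0.0954% in Mcph1-/- of all reads, with the 3 Mcph1-/- shares above the 3 WT shares. Snrpa shares 327 exonic bases with BC024978 on the other strand and Snrpa1 shares 148 with Gm45213 on its own strand, so both values are uncertain, since whether the counting used strand is unknown here.

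The 12th Snrp row, Snrpert, is annotated as a processed pseudogene, a near-identical copy of Snrpe. It stood at 971, 773 and 741 in WT and 1209.6, 1168 and 1408 in Mcph1-/- (log2 fold change 0.61, SE 0.26, limma adjusted p = 0.642). Its ratio to Snrpe was 0.693, 0.704 and 0.629 in WT and 0.719, 0.648 and 0.643 in Mcph1-/-, nearly the same in every library. Reads of the one can be assigned to the other, so the 2 rows are uncertain taken singly and are not independent. Their sum, a combination chosen after the values were seen, stood at 2371, 1869.9 and 1918 in WT and 2891, 2971 and 3599 in Mcph1-/- (log2 fold change 0.62, SE 0.19, limma adjusted p = 0.615). Without Snrpert the Snrp family had 11 genes, 10 of them higher and 6 separated upward, with a median of 0.60, and its summed shares of reads overlapped between genotypes.

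The SF3a and SF3b subunits were close to balanced. Of the 9 Sf3 genes 5 were higher and 4 lower in Mcph1-/-. Their median on the log2 scale was 0.05, and it was below 0 by edgeR (-0.11) and DESeq2 (-0.14). Sf3b5, a small SF3b subunit, was the 1 gene with separated groups, at 3135, 2619.9 and 2972 in WT and 4037, 3265 and 3724 in Mcph1-/- (log2 fold change 0.34, SE 0.17, limma adjusted p = 0.662). Sf3b1, the large subunit that clamps the branch point helix, stood at 4624, 3198 and 2934 in WT and 3081, 2762 and 3074 in Mcph1-/- (log2 fold change -0.24, SE 0.21, limma adjusted p = 0.757). WT replicate 1 was the highest library for Sf3b1, and the other 5 lay between 2762 and 3198. Sf3b6, the p14 protein that contacts the branch point, had a log2 fold change of -0.14 (SE 0.24), Sf3b2 one of -0.39 (SE 0.31) and Sf3a3 one of -0.32 (SE 0.28). Sf3a2, at 73.7, 119.5 and 28.3 in WT and 106, 205 and 114 in Mcph1-/-, had the highest point estimate, 1.09 (SE 1.06), on few reads. Sf3b3 ranged from 241 to 1795 within WT, wider than its Mcph1-/- range of 720.2 to 889, and its log2 fold change was 0.31 (SE 0.65). Sf3a1 (log2 fold change 0.06, SE 0.89) and Sf3b4 (log2 fold change 0.05, SE 0.44) were near 0. The summed share of reads was 0.207%, 0.187% and 0.152% in WT and 0.174%, 0.170% and 0.173% in Mcph1-/-, with the Mcph1-/- libraries inside the WT range.

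Among the 10 listed SR protein genes 7 were higher and 3 lower (median 0.29 on the log2 scale), and the groups of 2 genes did not overlap, Srsf2 upward and Srsf11 downward. Srsf2, which encodes SC35, an SR protein bound to exonic enhancers, lies on chromosome 11 from 116849901 to 116853094 (mm10) and stood at 2988, 3367 and 3560.2 in WT and 3665, 5545 and 5244 in Mcph1-/-. The lowest Mcph1-/- library lay just above the highest WT library, and averages were 3305 ± 291 in WT and 4818 ± 1009.6 in Mcph1-/- (SD, n = 3; log2 fold change 0.52, SE 0.20, limma adjusted p = 0.626). Srsf2 shares 460 exonic bases with Mettl23 and 288 with Mfsd11 on the other strand, so its value is uncertain. Srsf11, an SR-related protein whose gene lies on chromosome 3 from 158010473 to 158036639, stood at 3412, 3824 and 3629 in WT and 2829, 2589.7 and 2527 in Mcph1-/-. All Mcph1-/- values were lower, with a Mcph1-/- to WT ratio of 0.731, and the replicates lay close together (log2 fold change -0.45, SE 0.16, limma adjusted p = 0.626). DESeq2 called Srsf11, with a log2 fold change of -0.45 and an adjusted p of 0.042, and edgeR did not (adjusted p = 0.829).

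**Figure D3:**
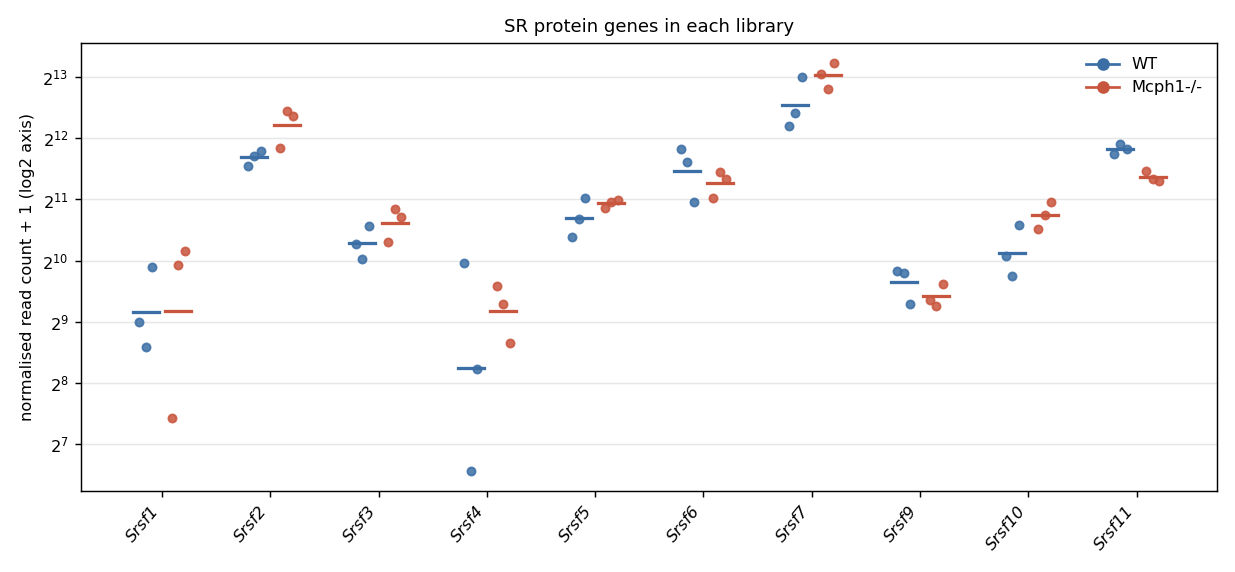
Normalised read count + 1 of the 10 SR protein genes in each library on a log2 axis, WT in blue and Mcph1-/- in red, points for libraries and bars for means of log2 values. The groups separate upward for Srsf2 and downward for Srsf11, and Srsf1 and Srsf4 spread widely within a genotype.

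Other SR genes overlapped between genotypes. Srsf7, the most read of the 56 genes and with Srsf3 an adaptor of mRNA export, stood at 4705, 5459 and 8226 in WT and 8464, 7165 and 9594 in Mcph1-/- (log2 fold change 0.49, SE 0.23, limma adjusted p = 0.662). WT replicate 3 lay among the Mcph1-/- libraries. Srsf10 stood at 1081, 855 and 1524 in WT and 1472, 1720.2 and 1986 in Mcph1-/- (log2 fold change 0.61, SE 0.28, limma adjusted p = 0.662), with WT replicate 3 again overlapping the other genotype. Srsf3 had a log2 fold change of 0.33 (SE 0.26), Srsf5 one of 0.25 (SE 0.23), Srsf6 one of -0.19 (SE 0.26) and Srsf9 one of -0.23 (SE 0.31). Srsf1, the founding SR protein gene (SF2/ASF), ranged from 171 in Mcph1-/- replicate 1 to 1137 in Mcph1-/- replicate 3, with a log2 fold change of 0.01 (SE 0.74). Srsf4 stood at 992, 93.8 and 299 in WT and 765, 623 and 401 in Mcph1-/- (log2 fold change 0.92, SE 0.81). Its WT libraries spread over 10.6-fold, enclosing all Mcph1-/- values. The SR genes together took 0.236%, 0.238% and 0.279% in WT and 0.269%, 0.302% and 0.330% in Mcph1-/- of all reads, with Mcph1-/- replicate 1 below WT replicate 3.

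The Prpf genes gave no separated groups, 0 of 13, with 8 higher, 5 lower and a median of 0.34 on the log2 scale. Their summed share of reads was nearly level, at 0.0913%, 0.0885% and 0.0842% in WT and 0.0927%, 0.0912% and 0.0918% in Mcph1-/-. Prpf8, the large U5 protein that cradles the catalytic RNA, stood at 1004, 609.9 and 886 in WT and 941, 523 and 982 in Mcph1-/- (log2 fold change -0.06, SE 0.37, limma adjusted p = 0.976, 95% interval -0.90 to 0.78). Prpf6, which bridges U5 to U4/U6, stood at 845, 939 and 845 in WT and 546, 848 and 615 in Mcph1-/- (log2 fold change -0.41, SE 0.30, limma adjusted p = 0.726). Mcph1-/- replicate 2 of Prpf6 lay inside the WT range. Prpf31, a U4/U6 protein, ranged from 272 to 1151 within WT, and its log2 fold change was -0.07 (SE 0.58).

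The U4/U6 proteins Prpf3 and Prpf4 were each unread in a single WT library. Prpf3 stood at 0, 99.9 and 719 in WT and 187, 128 and 600.0 in Mcph1-/-, and Prpf4 at 657, 0 and 430.2 in WT and 202, 264 and 154 in Mcph1-/-. A count of 0 allows up to 3 reads, a value of 3.25 in WT replicate 1 and 3.09 in WT replicate 2, for counting error only. That one library sets the sign of the fitted values, since the log2 fold changes of 2.55 (SE 2.22) for Prpf3 and 1.63 (SE 2.29) for Prpf4 were -0.14 without WT replicate 1 and -1.39 without WT replicate 2. Prpf4 was also below 0 by edgeR (-0.78) and DESeq2 (-0.81). Their means on the linear scale were 273 ± 389 in WT and 305 ± 257 in Mcph1-/- for Prpf3 and 362 ± 334 in WT and 207 ± 55.0 in Mcph1-/- for Prpf4 (SD, n = 3).

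The remaining Prpf genes have roles around the core particle. Prpf40b, which encodes a U1-associated protein, had the lowest log2 fold change of the family, -1.88 (SE 0.96), at 421, 974 and 591 in WT and 32.8, 424 and 338 in Mcph1-/-. It was lowest in Mcph1-/- replicate 1, and without that library the log2 fold change was -0.72. Prpf4b, a kinase of the pre-activation spliceosome, had a log2 fold change of 0.63 (SE 0.48), Prpf38a one of 0.49 (SE 0.39), and Prpf18, a factor of the second catalytic step, one of 0.73 (SE 0.64). Prpf39, another U1-associated protein, had 0.36 (SE 0.48) and Prpf38b -0.17 (SE 0.40). Prpf19, the ubiquitin ligase of the Prp19 complex, had the fewest reads of the 56 genes, at 23.9, 72.1 and 28.3 in WT and 29.2, 15.6 and 112 in Mcph1-/- (log2 fold change 0.03, SE 1.46), and the difference was not resolved at this depth and spread.

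In the Lsm family 9 of 12 genes were higher (median 0.31 on the log2 scale), and separated groups occurred in both directions, with 2 above and 2 below. Lsm2, a subunit of both LSm rings, the nuclear ring on U6 RNA and the cytoplasmic ring that promotes mRNA decapping, had the smallest p of the 56 genes. It lies on chromosome 17 from 34981862 to 34985891 (mm10) and stood at 1790.4, 1351 and 1615 in WT and 2447, 3341 and 2841 in Mcph1-/-. All 3 Mcph1-/- libraries exceeded all 3 WT libraries, and averages were 1585 ± 221 in WT and 2876 ± 448 in Mcph1-/- (SD over 3 libraries), which is a 1.81-fold difference with a 95% interval of the log2 fold change of 0.37 to 1.35 (log2 fold change 0.86, SE 0.21, limma adjusted p = 0.540). DESeq2 called it (adjusted p = 0.0042) and edgeR did not (adjusted p = 0.651).

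Lsm2 was the 1 ring gene with all Mcph1-/- values above WT, and no difference between ring genes was tested. Lsm3 had the smallest spread between replicates of the 56 genes, at 678, 706 and 675 in WT and 643, 582 and 609 in Mcph1-/-, with all Mcph1-/- values slightly below WT (log2 fold change -0.17, SE 0.30, limma adjusted p = 0.889). Lsm4, the most read Lsm gene, stood at 4965, 3703 and 3602 in WT and 4255, 5130.2 and 5408 in Mcph1-/- (log2 fold change 0.28, SE 0.19, limma adjusted p = 0.706), with the genotypes overlapping. Lsm8, the subunit particular to the nuclear ring, stood at 729.8, 1744 and 998 in WT and 1338, 1291 and 1596 in Mcph1-/- (log2 fold change 0.37, SE 0.34), and Lsm1, its counterpart in the cytoplasmic ring, at 2097, 851 and 1309.9 in WT and 1952, 1937 and 1043 in Mcph1-/- (log2 fold change 0.25, SE 0.39). Lsm6 (log2 fold change 0.23, SE 0.23), Lsm5 (log2 fold change 0.33, SE 1.16) and Lsm7 (log2 fold change -0.13, SE 0.50) also overlapped. Of the 8 ring genes 6 were higher and 2 lower, with a median of 0.26.

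The pair of LSm proteins particular to the U7 particle, which cuts the 3′ ends of replication-dependent histone pre-mRNAs, are encoded by Lsm10 and Lsm11, whose groups both separated. Lsm10 stood at 2591, 1769 and 1716 in WT and 544, 1472 and 1659 in Mcph1-/-. All Mcph1-/- values lay below all WT values, with Mcph1-/- replicate 1 far below the rest (log2 fold change -0.85, SE 0.43, limma adjusted p = 0.662), and without that library the log2 fold change was -0.35. Lsm11 stood at 144, 0 and 0 in WT and 324, 188 and 264 in Mcph1-/-. All Mcph1-/- libraries were higher, WT replicates 2 and 3 had no reads, and 133 reads in WT replicate 1 made up the whole WT signal. Lsm11 is listed only because every Mcph1-/- library had reads of it, so its separated groups add no support. The fitted value (log2 fold change 5.59, SE 2.13, limma adjusted p = 0.626) depends on the added 1 through those zeros, and the means were 48.1 ± 83.3 in WT and 259 ± 68.2 in Mcph1-/- (SD, n = 3), giving a ratio of 5.38. That ratio rests on WT replicate 1, without which the WT libraries are at 0. Of the Lsm proteins outside these rings, Lsm14a, a P-body protein, had 1.05 (SE 0.90) and Lsm12 0.66 (SE 1.27), both with wide spread.

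**Figure D4:**
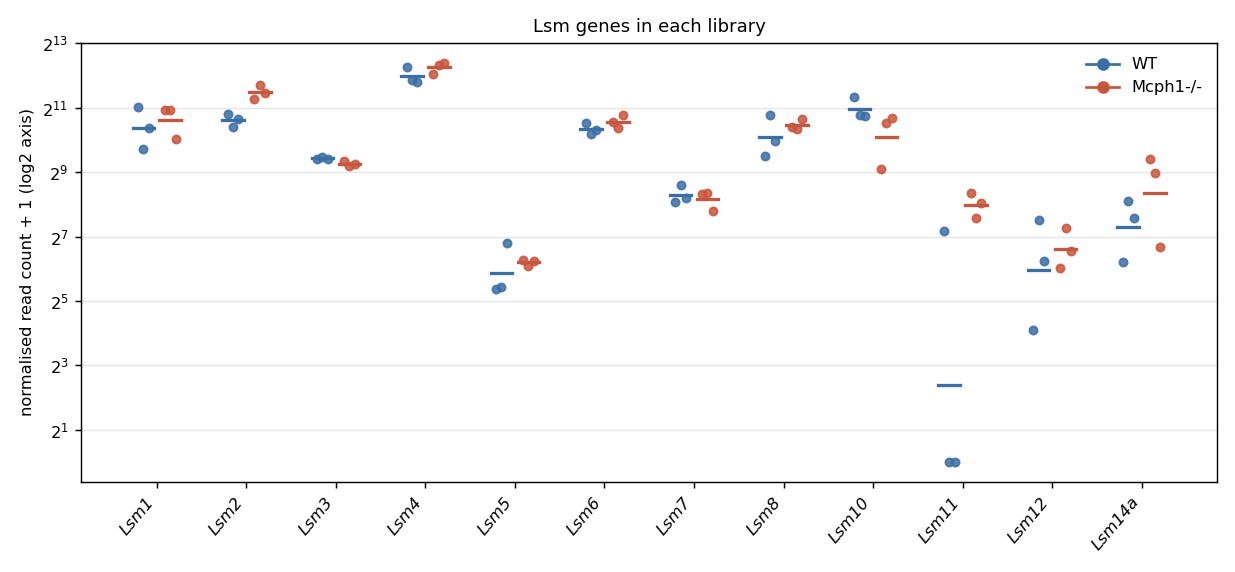
Normalised read count + 1 of the 12 Lsm genes in each library on a log2 axis, WT in blue and Mcph1-/- in red, points for libraries and bars for means of log2 values. Lsm2 and Lsm11 have all red points above all blue points, Lsm3 and Lsm10 have them below, and 2 WT points of Lsm11 lie at 0 reads.

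The families differed in level and in spread between replicates. The pooled SD of log2 values within genotypes had a median of 0.25 over the Snrp genes, 0.30 over Srsf, 0.47 over Sf3, 0.52 over Lsm and 0.70 over Prpf, against 0.88 over all tested genes. The median of mean values was 840.0 over the 56 genes and 286 over all tested genes, so the splicing genes were read more deeply than most. The plot of level against spread shows that the widest spread, in Prpf4, Prpf3 and Lsm11, belongs to the 3 genes with 0 reads in a library, while 2670 of all tested genes had 0 reads in at least 1 library. The SE of the log2 fold change had a median of 0.48 over the Prpf genes and 0.25 over the Snrp genes.

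**Figure D5:**
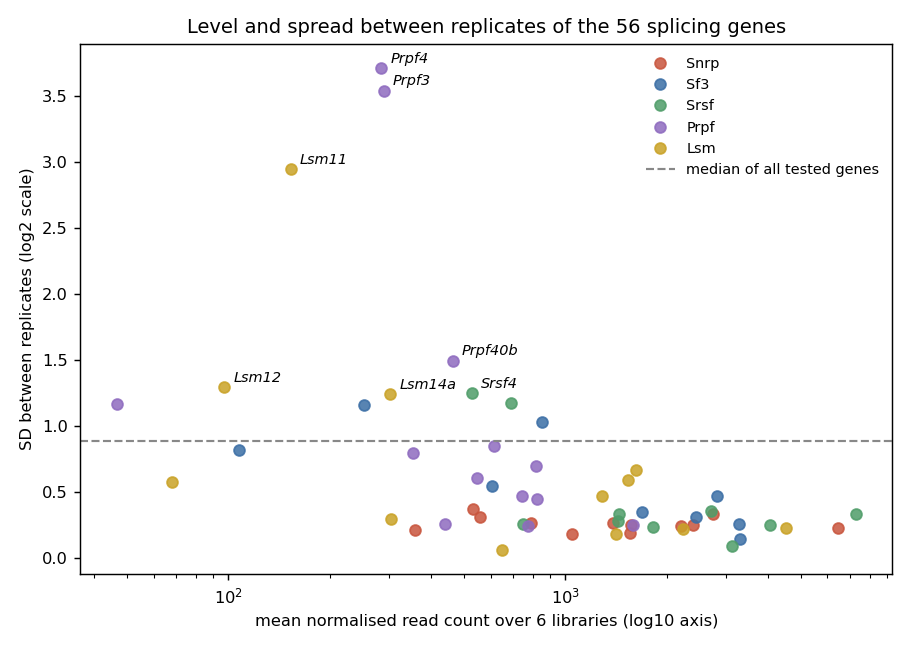
Mean normalised read count over the 6 libraries (log10 axis) against the pooled SD of log2 values within genotypes for each of the 56 genes, coloured by family, with the median SD of all tested genes as a dashed line. Most Snrp and Srsf points lie below the dashed line, and Prpf4, Prpf3 and Lsm11 lie at the top.

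Per kilobase of annotated exonic sequence, mean levels over the 6 libraries spanned a wide range within families. In the Sm ring the values ran from 227.4 normalised reads per kilobase for Snrpg to 3261 for Snrpb, and in the SF3 genes from 40.6 for Sf3a2 to 858 for Sf3b6. Among Srsf genes they ran from 120.5 for Srsf1 to 2048 for Srsf7, among Prpf genes from 6.43 for Prpf19 to 200.3 for Prpf6, and among Lsm genes from 23.8 for Lsm11 to 4345 for Lsm4. The exonic length is the union of all annotated transcripts, so genes with long minor transcripts, such as Snrpc at 85.8 per kilobase over 6521 bases, are set too low.

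Of the 56 genes, 16 share exonic sequence with another annotated gene, so their values are uncertain in the same way: Lsm3, Lsm14a, Prpf4b, Prpf31, Prpf39, Sf3a2, Sf3b2, Sf3b3, Sf3b4, Snrpa, Snrpa1, Snrpd3, Snrpf, Srsf1, Srsf2 and Srsf4. Promoter windows of 250 bases before the RefSeq start (GRCm38.p6) were found for 46 of the 56 genes. RefSeq starts can differ from the GENCODE positions used elsewhere here, so a window can lie within the GENCODE gene. Of the windows printed below, that of Snrpc lies wholly inside the GENCODE span, which starts at 27838150. Most of the Snrpg window lies inside its span, which starts at 86371304, and the Snrpb2 window runs past its start at 143063039. A set of 5 short words, chosen after some of these windows had been looked at, were counted on both strands, with a gene counted once when any of its windows held the word. CCGGAAG, a word that ETS family factors bind, was in 17 of 46 genes (37.0%), against 17.6% of 7832 listed genes with a window, and in 6 of 7 Sf3 genes, 3 of 9 Snrp genes and 1 of 9 Lsm genes. CCAAT was in 37.0% against 40.6%, GCATGCGC in 10.9% against 5.54%, CACGTG in 8.70% against 10.2% and TATAAA in 8.70% against 7.47%. The median GC content of the windows was 60.4% against 59.6%. A word in a window is a description of its letters, not a bound site. Of the genes whose groups separated upward, 8 had a window, and 3 of these (37.5%) held CCGGAAG, near the share among all the splicing genes. These are Snrpb2, Snrpc and Snrpg, while Snrpe, Snrpa1, Srsf2, Lsm2 and Lsm11 lack it. The 3 windows with the word are printed as examples in the direction of the gene, with the word in capitals. In Snrpb2 it stands as its reverse complement, CTTCCGG. In Snrpg the reverse complement of CCAAT is in capitals too.
Snrpb2 promoter, chr2:143062819-143063068, plus strand: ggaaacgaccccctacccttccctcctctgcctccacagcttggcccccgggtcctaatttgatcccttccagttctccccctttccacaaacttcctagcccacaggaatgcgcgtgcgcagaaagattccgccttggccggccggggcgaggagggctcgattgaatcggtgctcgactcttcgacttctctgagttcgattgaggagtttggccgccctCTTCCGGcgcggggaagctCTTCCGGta
Snrpc promoter, chr17:27839837-27840086, plus strand: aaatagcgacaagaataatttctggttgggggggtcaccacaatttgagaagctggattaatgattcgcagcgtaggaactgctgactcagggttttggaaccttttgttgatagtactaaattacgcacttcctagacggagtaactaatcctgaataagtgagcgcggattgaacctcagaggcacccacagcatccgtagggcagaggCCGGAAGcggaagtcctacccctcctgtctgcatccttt
Snrpg promoter, chr6:86371290-86371539, plus strand: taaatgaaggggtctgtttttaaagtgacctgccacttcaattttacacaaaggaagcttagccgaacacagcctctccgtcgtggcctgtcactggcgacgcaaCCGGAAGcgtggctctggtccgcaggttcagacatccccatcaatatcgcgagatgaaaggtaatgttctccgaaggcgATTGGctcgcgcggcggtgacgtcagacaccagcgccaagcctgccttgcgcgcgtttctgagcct

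Beyond the 56 genes, 108 of 111 other splicing genes from 8 lists were tested, and 0 were called by limma, 62 being higher and 46 lower with a median of 0.13. Of the 108, 7 had separated groups upward (6.48%, against 7.4% of all tested genes) and 9 downward (8.33%, against 6.8%), and 7 had an unadjusted p under 0.05 by limma, against 7.71% of all tested genes. edgeR called 0 of the 108, and 7 (6.48%) had an unadjusted p under 0.05 by it, against 5.47% of all tested genes. DESeq2 called 3 (2.78%, against 2.19% of all tested genes), namely Edc3, Son and Xab2, and gave 11 (10.2%) an unadjusted p under 0.05, against 10.9%. The assembly factors that load Sm rings onto RNA had the highest median, 0.38, with 11 of 15 higher. Snupn, snurportin, the import adaptor of assembled snRNPs, stood at 141, 340.0 and 255 in WT and 959, 695 and 448 in Mcph1-/- (log2 fold change 1.53, SE 0.52, limma adjusted p = 0.626), without overlap. Gemin6, a subunit of the SMN complex, stood at 516, 495 and 577 in WT and 769.9, 799.8 and 964 in Mcph1-/- (log2 fold change 0.67, SE 0.30, limma adjusted p = 0.660), also without overlap.

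The SR-related genes and SR kinases had a median of -0.12, with 6 of 14 higher. Son, a large nuclear speckle protein, stood at 8147, 7558 and 6351 in WT and 5504, 4980.1 and 5258 in Mcph1-/- (log2 fold change -0.48, SE 0.15, limma adjusted p = 0.625), and Acin1, acinus, at 1833, 1459 and 1712 in WT and 1093, 888 and 1178 in Mcph1-/- (log2 fold change -0.67, SE 0.24, limma adjusted p = 0.626). Both were lower in every Mcph1-/- library. Medians were 0.23 over 14 U1, U5 and tri-snRNP partners, 0.26 over 10 U2 and 3′ splice site factors, 0.06 over 21 hnRNP and Ptbp genes, 0.02 over 16 Prp19 complex and catalytic step factors and 0.00067 over 8 tested of 10 minor spliceosome genes. Xab2, of the Prp19-related complexes, had the smallest p of the 108, at 1103, 1753 and 1351 in WT and 462, 675 and 756 in Mcph1-/- (log2 fold change -1.16, SE 0.32, limma adjusted p = 0.555). Other genes named by the rule had log2 fold changes of 0.50 (SE 0.24) for Snu13, 0.29 (SE 0.22) for Phf5a, 0.69 (SE 0.45) for Htatsf1, 0.52 (SE 0.28) for Bcas2 and 0.85 (SE 0.39) for Hnrnpab. Cd2bp2, a U5 protein, stood at 0, 0 and 137 in WT and 169, 226 and 212 in Mcph1-/-, and Hnrnpd at 586, 0 and 37.5 in WT and 426, 427 and 745 in Mcph1-/-, so that libraries at 0 reads raise their fitted values. Like Lsm11, Cd2bp2 is listed only because every Mcph1-/- library had reads of it, so its separated groups add no support. In the minor spliceosome Scnm1 (log2 fold change -0.42, SE 0.21) and Zrsr2 (log2 fold change -0.77, SE 0.49) were lower without overlap. Among 10 tested of 11 decapping and U7 partners of LSm proteins, with a median of -0.06, Slbp, which binds the histone mRNA stem-loop that U7 processing needs, stood at 2025, 1109 and 2398 in WT and 4058, 2412 and 4018 in Mcph1-/- (log2 fold change 0.96, SE 0.34, limma adjusted p = 0.626). Edc3, an enhancer of decapping, stood at 1501, 1181 and 1177 in WT and 649.5, 692 and 769.6 in Mcph1-/- (log2 fold change -0.86, SE 0.26, limma adjusted p = 0.603). The groups of Slbp separated upward, narrowly, and those of Edc3 downward.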

How the data were processed

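RNA-seq of 6 libraries was analysed, 3 per genotype, each from 200 sorted cells sequenced as pairs of 150-base reads, per the labels' protocols. Tools listed, per the submitters' processing notes, are DESeq2, featureCounts, HISAT2 and Trim Galore 0.6.6, in no stated role, with build mm10. For the annotation release and strand setting, the sources used here state nothing. The deposited values are a signal, gene read counts that the authors divided by 1 size factor per library. This was worked out from the values, since 100% were whole multiples of 1 read within 0.001 reads, and whole reads were recovered. The fewest libraries in which a listed gene was read is 4 of 6, so a gene read in 1 genotype only is not listed. limma 3.58.1 (trend) was fitted to log2(value + 1) with 1 term, genotype, over all genes whose mean reached 10. edgeR 4.0.16, DESeq2 1.42.0 and limma-voom were run on recovered reads as alternatives, with other pseudocounts, filters, scaling, a replicate block and each library left out. No list was tested as a set. Positions are from GENCODE vM21 (mm10), 1-based, matched for all 56 genes.

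Genes were named by a rule: up to 6 genes of each family with the smallest p, genes whose groups do not overlap, genes with 0 reads in a library and the extremes of level per length, with up to 2 genes of each other list. Further splicing genes are named, after their values were seen, to complete their complexes. Some genes and sequences are not reported here. The members and lists were chosen with earlier results of these data known. Chi-square tests of reads between replicates gave at least 82.9 per degree of freedom, so no 2 libraries of a genotype agreed within sampling noise. Reads carry no molecular identifiers, so limits from a count of 0 cover counting error only.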

Additional observations from a re-analysis of the deposited data

How the results depend on the processing

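Genes called over all genes numbered 4, and 2 by edgeR, 238 by DESeq2, 1 by limma-voom and 1 to 4 without 1 library in turn. Splicing genes called numbered 0, and 2 by DESeq2. Their median log2 fold change was 0.25 by edgeR, 0.22 by DESeq2 and 0.24 to 0.37 without 1 library in turn, and 35 to 40 were higher in all 16 other settings. Without 1 library in turn the family medians ran 0.52 to 0.63 (Snrp), -0.21 to 0.26 (Sf3, -0.21 without WT replicate 3), 0.14 to 0.48 (Srsf), 0.094 to 0.38 (Prpf) and 0.19 to 0.34 (Lsm). The Prpf median was 0.20 by edgeR and 0.16 by DESeq2, and the Lsm median 0.22 by DESeq2. The median of all tested genes was 0.08, and -0.025 by DESeq2. Of 896 alternative values of single splicing genes 863 kept their direction. The replicate block and the other filters leave a gene's log2 fold change unchanged by construction, so part of this count was fixed in advance. By edgeR and DESeq2, Prpf4 was -0.78 and -0.81 and Sf3b3 -0.11 and -0.14. Without 1 library in turn, log2 fold changes crossed 0 for Lsm1 (-0.069 to 0.58), Lsm12 (-0.26 to 1.44), Lsm7 (-0.24 to 0.052), Prpf19 (-0.75 to 0.63), Prpf3 (-0.14 to 4.60), Prpf31 (-0.59 to 0.44), Prpf39 (-0.17 to 0.78), Prpf4 (-1.39 to 3.29), Prpf8 (-0.27 to 0.24), Sf3a1 (-0.62 to 0.71), Sf3b3 (-0.41 to 1.03), Sf3b4 (-0.21 to 0.36), Snrpb (-0.078 to 0.18), Snrpd3 (-0.089 to 0.22) and Srsf1 (-0.48 to 0.89). The cause was not tested, except that single libraries at 0 reads set the sign for Prpf3 and Prpf4. A mean of at least 50 leaves out Prpf19. With the replicate number as a block 3 genes were called over all genes and 0 splicing genes, with a median of 0.32. Deviations of same-numbered libraries correlated at -0.01, 0.02 and -0.03, and not every library correlated best with its own number, so the numbers were not taken to pair the libraries.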
